A study of Homo sapiens with 3 samples.

Results

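The comparison set 1 array of UM-UC-3 cells given DANCR siRNA2 against 1 array of the same line given a control siRNA. UM-UC-3 is an established human bladder cancer line. The series held 3 arrays, and the array of DANCR siRNA1 was used to choose probe sets, to filter genes and to give values side by side. All cells received 75 nM siRNA with a lipid transfection reagent, and RNA was taken after 48 h. The groups differed in the siRNA alone as far as the labels state, and each group was 1 sample, so every difference is a size on 2 arrays with no replicate check and no p-value. Expression was read as intensity on a linear scale, 1 value per Affymetrix probe set. Of 19775 genes with a probe set that names them alone, 12436 were measured, which means that at least 1 of the 3 arrays lay above the floor of 10.5, the median of all values in the table. Lower values were raised to that floor, so a ratio that touches it gives a bound.

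DANCR is a long noncoding RNA, a transcript that is not translated, and many tumours carry it at high levels. An siRNA is a short duplex of which the guide strand is held by an Argonaute protein and paired with a target RNA, which is then cut. Pairing starts at bases 2 to 8 of the guide, the seed. The strand printed below is the one that the labels give, read here as the strand paired with the guide. Its capitals mark the bases opposite the guide's seed. The labels give no target position for the control siRNA, and the match of siRNA2 to DANCR was not checked. The strands are shown because the siRNA is the only stated difference between the arrays.
control siRNA: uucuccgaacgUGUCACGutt
DANCR siRNA2: gagcuagagcaGUGACAAutt
Each duplex has 19 paired bases. None of the 2370 mature human miRNA names in the RefSeq table had the seed of either guide. The labels place the siRNA2 target at position 433, in a field named for the WDR5 coding sequence, so the transcript that the position counts along is unclear. Matches of the seeds in other transcripts were not analysed here.

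The intensity of DANCR was 671 under the control siRNA, 116 under siRNA1 and 126 under siRNA2. It had 1 measured probe set. With siRNA2 it stood at 18.8% of the control, the third lowest ratio of the 12436 genes. Only CCND1 and HMGB3 stood lower, and STT3B came next. Cyclin D1, CCND1, drives cells through G1 with CDK4 or CDK6. Its intensity was 1044 under the control siRNA, 430 under siRNA1 and 96.2 under siRNA2, which is 10.8-fold lower with siRNA2. HMGB3, a chromatin protein of the high mobility group box family, was at 440, 581 and 74.5 in the same order. STT3B, a catalytic subunit that attaches N-glycans to proteins in the endoplasmic reticulum, was at 388, 436 and 73.3. For HMGB3 and STT3B the siRNA1 value lay above the control, and the siRNA2 value lay 5.90-fold and 5.30-fold below it.

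At the 2-fold threshold, 267 genes (2.15% of those measured) were higher and 151 (1.21%) were lower with siRNA2, 418 (3.36%) in all. The median log2 ratio of all measured genes was 0.00, and the quartiles were -0.11 and 0.24. In 2343 genes (18.8%) the ratio was exactly 0 (tolerance 1e-09). In 82 of these both arrays lay at the floor, and in the rest the deposited values were equal on both arrays. On the siRNA1 array, which neither side of the ratio uses, the higher genes had a median intensity of 75.2 and the lower genes 155. Among the 4146 brightest genes on that array 1.64% were higher and 1.95% lower, and among the 4145 next 3.16% were higher and 1.18% lower. Among the 4145 dimmest 1.64% were higher and 0.507% lower, so the share of higher genes was greatest at middle intensity. The control lay at the floor in 15 of the 267 higher genes, and the siRNA2 array in 2 of the 151 lower ones. The 3'/5' ratio of the ACTB control probe sets stood at 11.9 for the control array and at 14.4 for the siRNA2 array, and the GAPDH ratio at 1.25 and 1.35. The part of this difference in the results was not tested. On the log2 scale the greatest difference was 0.15 among the 18 measured bacterial spike probe sets and 0.56 among the 49 measured control probe sets.

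**Figure D1:**
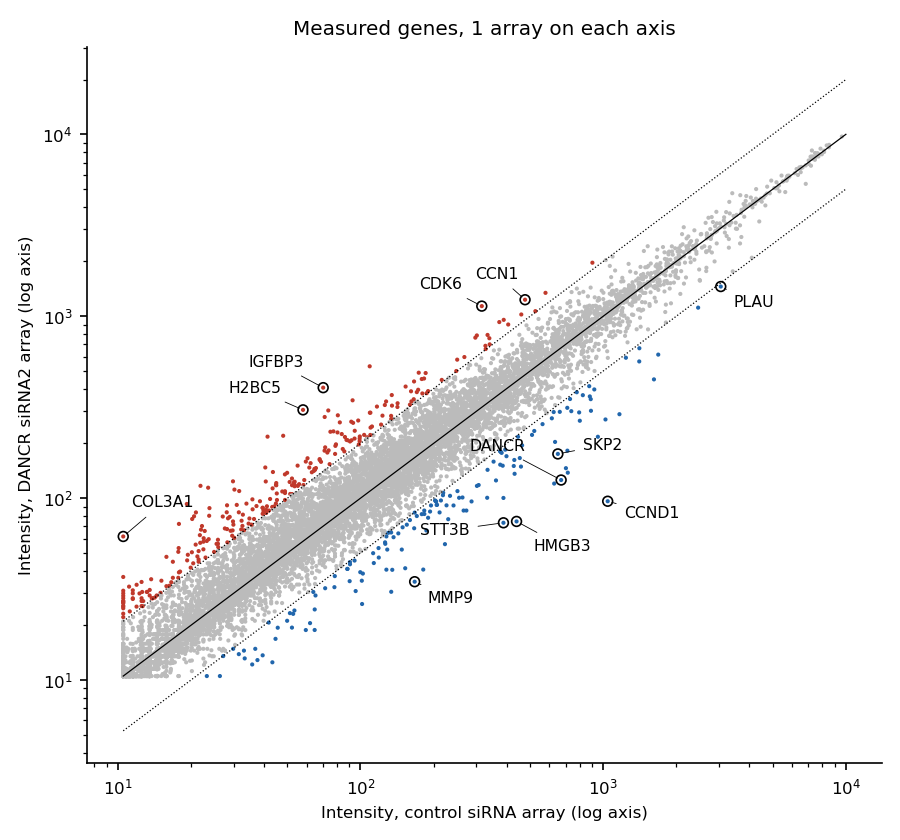
Intensity of each of the 12436 measured genes on the control siRNA array (horizontal log axis) and on the DANCR siRNA2 array (vertical log axis). The solid line marks equal values and the dotted lines 2-fold; the 267 higher genes are red, the 151 lower genes blue, and CCND1, at 1044 and 96.2, lies farthest below the line.

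Beyond these genes, the lowest ratios belonged to bright transcripts of varied function. NETO2, an auxiliary subunit of kainate receptors, was at 628 under the control siRNA, 480 under siRNA1 and 120 under siRNA2. GGCT, an enzyme of glutathione breakdown, was at 715, 563 and 138, and CNRIP1, which binds the cannabinoid receptor, was at 702, 442 and 146. In all 3 the siRNA2 array was far below both others, and the siRNA1 array lay closer to the control. SNRNP40, a protein of the U5 spliceosomal particle, was at 181, 193 and 40.5. TMED10, a cargo receptor between endoplasmic reticulum and Golgi, was at 951, 1066 and 218 on its brightest probe set, but at 311, 444 and 388 on the next. DCTN3, a dynactin subunit, was at 712, 688 and 183. MRS2, the magnesium channel of mitochondria, was at 134, 75.2 and 30.6, with log2 ratios of -1.75 and -1.85 on the remaining probe sets. RAB8B, a Rab GTPase that directs vesicles, was at 223, 73.7 and 55.9, so that both DANCR siRNA arrays stood below the control.

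The highest ratios belonged to dim or moderate transcripts. IGFBP3, which binds insulin-like growth factors outside the cell, was at 70.2 under the control siRNA, 134 under siRNA1 and 405 under siRNA2, 5.77-fold higher with siRNA2. FAM3C, a secreted cytokine-like protein, was at 109, 251 and 531, and the protocadherin PCDH10 at 41.4, 117 and 218. TCF21, a helix-loop-helix factor of mesenchyme, was at 73.7, 178 and 304. In these 4 genes the siRNA1 value lay between the others. DSEL, an epimerase of dermatan sulphate, was at 21.9, 42.9 and 117, PRMT6, an arginine methyltransferase, at 23.6, 80.5 and 114, and CDK14, a kinase that binds cyclin Y, at 71.2, 169 and 280. TMEM45A stood at 17.9 and 19.3 without siRNA2 and at 72.2 with it. Among genes that were at the floor in the control, COL3A1, a chain of fibrillar collagen, was at least 5.85-fold higher. SLITRK6, a membrane protein of neurite growth, was at least 3.50-fold higher. In the other direction IL32, an inflammatory cytokine, was at 26.3 in the control and at the floor with both DANCR siRNAs, at least 2.50-fold lower.

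**Figure D2:**
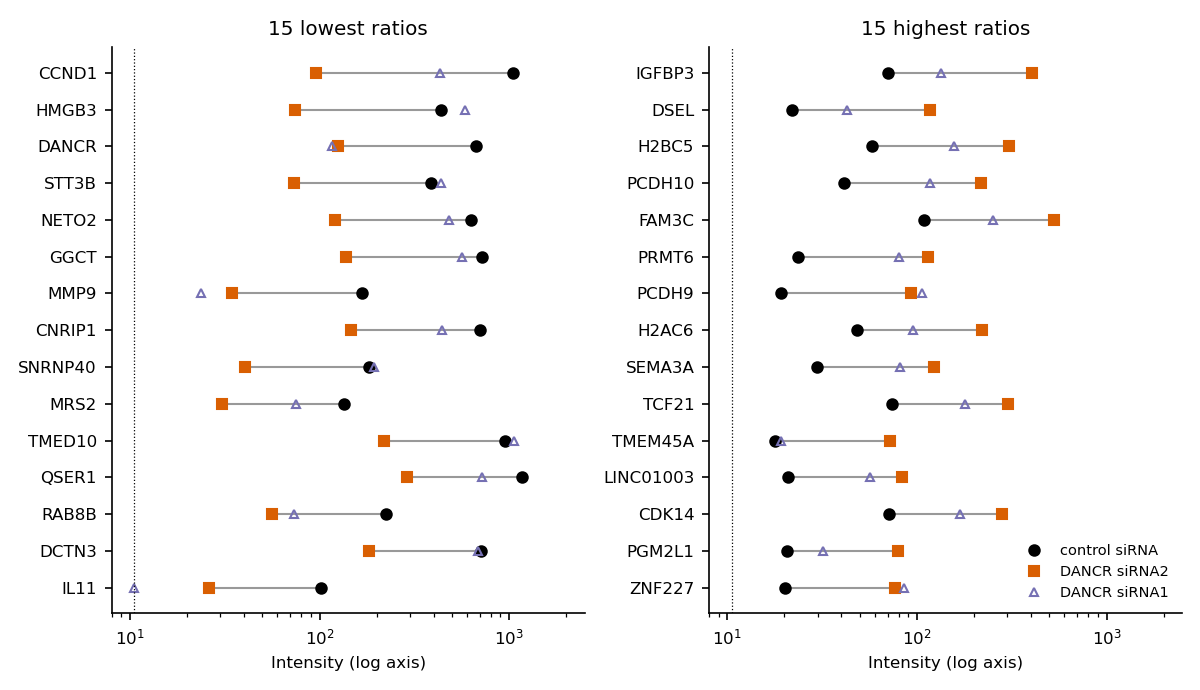
Intensity (log axis) on the 3 arrays of the 15 genes with the lowest and the 15 with the highest ratio of DANCR siRNA2 (squares) to control siRNA (circles), among genes above the floor on both; triangles show DANCR siRNA1 and the dotted line the floor of 10.5. The siRNA1 value of STT3B, SNRNP40 and DCTN3 lies by the control, and that of RAB8B and MMP9 lies near or below siRNA2.

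Second probe sets gave a check on the probe set, though not on the condition, since they read the same RNA on the same array. In 5716 genes the 2 brightest probe sets both lay above the floor on both arrays, and their log2 ratios differed by a median of 0.16. Of 87 such genes that were 2-fold lower on the brightest probe set, the next one pointed the same way in 75, was 2-fold lower in 28 and pointed the other way in 5. Of 129 that were 2-fold higher, the next pointed the same way in 104, was 2-fold higher in 41 and pointed the other way in 10. Over all 5716 genes the 2 readings had the same sign, or were both 0, in 3427 (60.0%). In 142 of the 5716 the second reading was 2-fold in the direction of the first. The median of the second probe set was -0.73 for the lower genes and 0.66 for the higher ones. Most 2-fold calls with a second reading thus kept their direction at a smaller size, and the smaller part of them was 2-fold again.

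Ranked by the smaller of the 2 readings, the lower genes began with CCND1 (-3.44 and -2.75 on the log2 scale) and HMGB3 (-2.56 and -2.26). On the second HMGB3 probe set siRNA1 was lower too, at 46.3 against 103 in the control. SKP2, the F-box protein that marks the inhibitor p27 for destruction, was at 650 under the control siRNA, 746 under siRNA1 and 175 under siRNA2, and its second probe set gave -1.71. BRCC3, a deubiquitinase of DNA repair complexes, was 2-fold lower on all 4 of its measured probe sets, with ratios from -1.79 to -1.45, while the log2 ratio of siRNA1 on the brightest was -0.10. NFIB, a transcription factor of the nuclear factor I family, was at 634, 570 and 204, and 5 of its 7 probe sets were 2-fold lower. STAMBPL1, another deubiquitinase, gave -1.67 and -1.38, and RASSF3 gave -1.37 on each of its brighter probe sets. CBX3, a reader of heterochromatin, gave -1.56 and -1.95 on the brighter pair, and -0.29 and -0.07 on the other two. CERS6, a ceramide synthase, gave -1.50 and -1.57, and 0.47 on another, dim probe set.

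Among the higher genes the same ranking began with IGFBP3 (2.53 and 2.19). CUX1, a homeobox transcription factor, was at 92.8 under the control siRNA, 162 under siRNA1 and 345 under siRNA2, and 4 of its 5 probe sets were 2-fold higher. CITED2, a partner of the coactivators CBP and p300, was at 80.7, 171 and 286, with 2.13 on the second probe set and -0.28 on another near the floor. STYXL1, a phosphatase without catalytic activity, was 2-fold higher on all 4 probe sets, from 1.55 to 1.93. ADAMTS1, a secreted metalloprotease, gave 1.42 and 1.56, MCRIP2 gave 1.68 and 1.81, and TCF21 gave 2.04 and 1.42. Some of the largest ratios had no such backing. PCDH9 gave 2.27 and -0.14, and NETO2 gave -2.38 and -0.22.

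**Figure D3:**
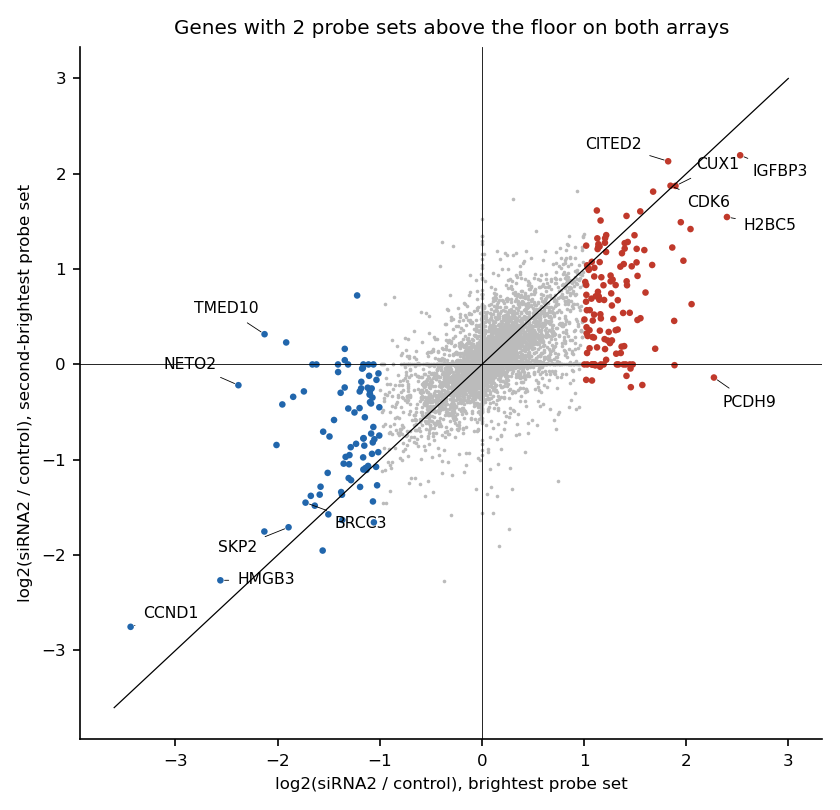
Log2 ratio of siRNA2 to control on the brightest (horizontal) and second-brightest (vertical) probe set of 5716 genes; genes 2-fold on the brightest are red or blue and the line marks equal ratios. HMGB3 and IGFBP3 lie near the line, and CCND1 lies above it, at -3.44 and -2.75. PCDH9, NETO2 and TMED10 lie near 0 on the vertical axis.

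Genes of DNA replication and of mitosis gave the lowest medians of the 36 lists. Of 39 measured genes of DNA replication and nucleotide synthesis, 37 were lower with siRNA2 than in the control, and of 36 genes of mitosis and the spindle 35 were lower. Among all measured genes 36.2% were lower and 45% higher. The medians were -0.40 and -0.38 on the log2 scale, and 1 member of each list reached 2-fold. With siRNA1, which shares the control array, the medians were -0.09 and 0.00. In cell populations a lower share of cells in a cycle phase and less RNA per cell cannot be told apart.

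In the replication list CDC6, which loads the replicative helicase, was at 171 under the control siRNA, 127 under siRNA1 and 79.8 under siRNA2, a log2 ratio of -1.10, and its second probe set gave -0.28. MCM2, a subunit of that helicase, was at 350, 311 and 185. RRM2, the small subunit of ribonucleotide reductase, was at 1802, 1590 and 1055, and its second probe set gave -0.83. All 7 measured MCM genes were lower, from -0.92 for MCM2 to -0.24 for MCM6. GINS1, of the helicase complex, was higher (0.20), and POLE, a polymerase subunit, was equal on both arrays. In the mitosis list MKI67, the proliferation marker Ki-67, was at 377, 300 and 153, while the other 3 probe sets had log2 ratios of -1.05, -0.76 and -0.70. KIF2C, a kinesin that shortens microtubules, gave -0.89 and -1.09 on its probe sets, CCNB1, cyclin B1, gave -0.82 and -0.11, and PRC1, which bundles the central spindle, gave -0.75. HMMR, a spindle protein, was higher, at 0.10. Read on second probe sets above the floor on both arrays, 19 of 20 replication genes and 19 of 20 mitosis genes were lower, with medians of -0.33 and -0.25.

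Of 18 measured G1 regulators, 10 were lower and 7 higher, with a median of -0.01, but the list held extremes in both directions. CDK6, the kinase that cyclin D1 activates, was at 316 under the control siRNA, 184 under siRNA1 and 1137 under siRNA2. Its 2 next probe sets gave 1.87 and 2.01, close to the 1.85 of the brightest. CDK6 was thus 3.60-fold above the control while its cyclin was 10.8-fold below. CCNE2, cyclin E2, was at 463, 270 and 195, and its second probe set, at 41.9 in the control, gave -0.50. CCND2 (0.61) was higher and CCND3 (-0.33) lower, and CDK4, the partner kinase, had -0.14. CDKN1A, the inhibitor p21, had -0.70, and CDKN1B, the inhibitor p27 that SKP2 targets, was at 463 and 461. Of 15 E2F and DREAM factors, which switch cycle genes on and off, 11 were lower, against 36.2% of all measured genes. Their median was -0.14, and none was at 2-fold. On second probe sets above the floor 3 of 8 were lower and 1 higher, with a median of 0.00. FOXM1, an activator of mitotic genes, had -0.44 and E2F1 -0.00.

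**Figure D4:**
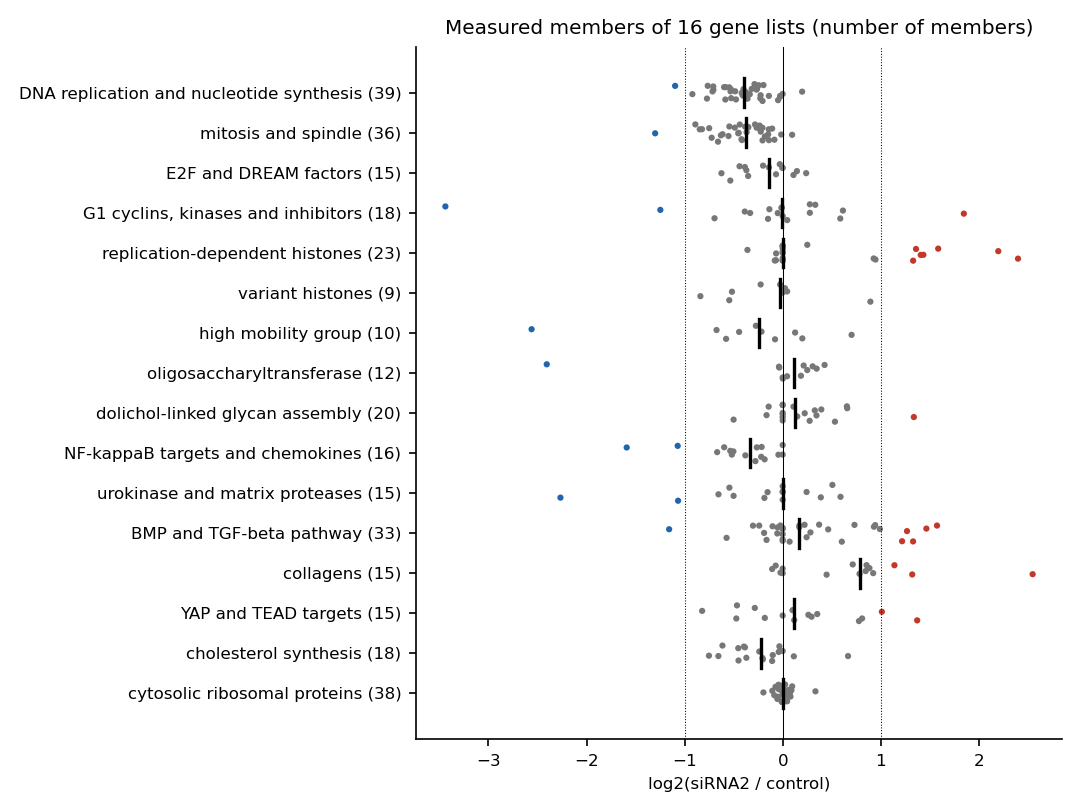
Log2 ratio of siRNA2 to control for each measured member (points) of 16 gene lists, with the median as a black bar and the 2-fold thresholds dotted; points past 2-fold are red or blue. Replication and mitosis genes lie to the left of 0 with medians of -0.40 and -0.38, ribosomal protein genes cluster at 0.00, and the histone list has a group of 7 past 2-fold.

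The promoters of these lists were read from RefSeq (GRCh38.p14, 250 bases before to 50 after the first start listed for a gene) because most members of each list lay on 1 side of the control. Replication genes often carry a site for E2F factors, searched as TTTGGCGC, TTTCCCGC or TTTCGCGC on both strands. Such a site was in 17 of 35 replication genes with a window, in 4.47% of measured genes and in 2.79% of all genes. Mitotic genes often carry a cell cycle homology element, searched as TTTGAA on both strands. It was in 20 of 31 mitosis genes, in 9.86% of measured genes and in 15.4% of all genes. Within the lists, genes with and without the site had like medians, -0.36 and -0.40 for E2F and -0.40 and -0.37 for the homology element. The windows of MCM2 (chr3:127598331-127598430, plus strand, 80 bases before to 20 after the start) and MKI67 (chr10:128126424-128126523, minus strand, 100 bases before the start) are shown with these letters in capitals. The MCM2 capitals hold overlapping matches.
MCM2: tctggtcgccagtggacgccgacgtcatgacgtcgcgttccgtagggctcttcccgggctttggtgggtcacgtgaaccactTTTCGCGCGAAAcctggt
MKI67: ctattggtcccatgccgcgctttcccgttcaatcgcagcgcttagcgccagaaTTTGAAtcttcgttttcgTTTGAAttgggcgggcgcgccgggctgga

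Replication-dependent histones, made in S phase with the replication genes above, sit in gene clusters, and most of their mRNAs end in a stem-loop instead of a poly(A) tail, though some H2A and H2B genes can also give polyadenylated mRNA. Of 63 genes in the list, 23 were measured. Of these, 7 were at least 2-fold higher with siRNA2, against 2.15% of all measured genes, and none was 2-fold lower. Members less than 2-fold above the floor in the control could not have been counted as 2-fold lower. Among the 7, H2BC4 (15.9), H2BC9 (19.4) and H2BC21 (11.5) were such members, and several of the level ones were too. The list median was 0.00, because 9 members had a ratio of exactly 0. The higher members belonged to the dimer histones: 6 of 7 measured H2B genes and 1 of 5 H2A genes. Of 3 H1, 3 H3 and 5 H4 genes none was measured past 2-fold, though H4C8 lay at the floor in the control and was at least 1.93-fold higher. Probe sets that name many H3 genes together stand outside this count. One shared by 10 H3 genes had a log2 ratio of 1.32, and one that names those and H2AC7 was at the floor in the control and had at least 1.01. Probe sets of near-identical histone genes can read several of them, so the values of single genes are uncertain.

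H2BC5 was at 58.0 under the control siRNA, 157 under siRNA1 and 306 under siRNA2, 5.28-fold higher with siRNA2, and its second probe set gave 1.55. H2AC6 was at 48.0, 95.9 and 220. H2BC12 was at 297, 431 and 763. H2BC6 was at 31.5, 57.8 and 83.7 and H2BC9 at 19.4, 27.6 and 48.9. In these 5 genes the siRNA1 value lay between the control and siRNA2. H2BC4 (15.9, 17.6 and 47.6) and H2BC21 (11.5, 11.5 and 31.2) were near the control with siRNA1. H2BC15, the H2B gene short of 2-fold, was at 13.2, 13.5 and 12.6. H1-2, a linker histone, had 0.93 and H1-3 had -0.36. The H3 genes with a probe set of their own lay between -0.07 and 0.00. With the floor at the 30th percentile 8 of 29 measured histones were 2-fold higher, with no floor 8 of 23, with the floor at the 70th percentile 4 of 11, and without probe sets that carry the shared suffixes _s_at and _x_at 2 of 14, H2BC4 and H2BC12.

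Of the 9 measured variant histones, which are made outside S phase too, none reached 2-fold on its brightest single-gene probe set. A probe set that names H3-3A, H3-3B and a miRNA together stands outside this count and had a log2 ratio of -1.48. CENPA, the histone of centromeres, had -0.84, H2AX, which marks DNA breaks, -0.54, H2AZ1 -0.22 and H2AJ 0.89. Among the 10 factors that act on histone mRNA 7 were lower, against 36.2% of all measured genes, with a median of -0.23. On second probe sets above the floor 2 of 5 were lower and 1 higher, with a median of 0.00. SLBP, which binds the stem-loop, had -0.20, and the processing factor LSM10 had -0.47.

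**Figure D5:**
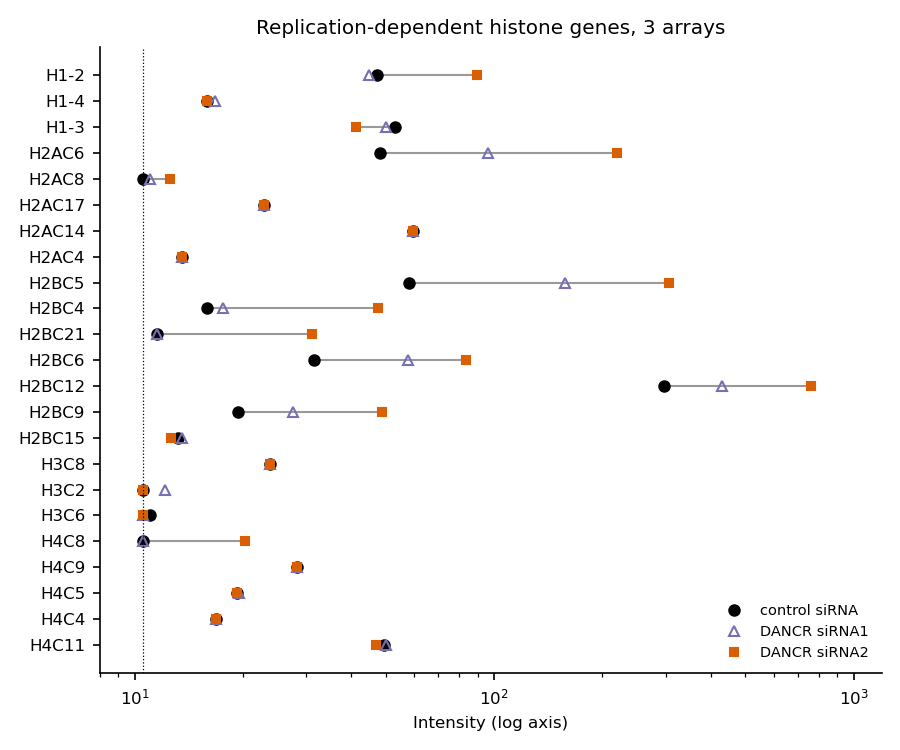
Intensity (log axis) of the 23 measured replication-dependent histone genes on the control siRNA (circles), DANCR siRNA1 (triangles) and DANCR siRNA2 (squares) arrays, by family; the dotted line is the floor of 10.5. Squares stand apart to the right for 6 of 7 H2B genes and for H2AC6, while most H3 and H4 genes have overlapping symbols.

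H2A and H2B promoters are known for an octamer that OCT1 binds, searched as ATTTGCAT on both strands. It was in 10 of the 12 measured H2A and H2B genes and in none of the 11 H1, H3 and H4 genes, against 1.22% of measured genes and 1.80% of all genes. Of the 7 genes that were 2-fold higher, 6 held it, and H2BC5 did not in its first window. Of the 5 H2A and H2B genes short of 2-fold, 4 held it. Among these 4, H2AC4, H2AC14 and H2AC17 had the same value on every array, at 13.5, 59.5 and 22.9. H2AC8 lay at the floor in the control. Whether values that repeat exactly read a steady level was not tested. These genes therefore cannot decide whether the octamer separates higher from level members within these families. H2AC6 and H2BC4 face away from each other, with starts 246 bases apart. The 250 bases before the H2AC6 start (chr6:26123922-26124171, plus strand) therefore span the stretch between them, with 1 octamer in capitals. The same length before the H2BC12 start (chr6:27146859-27147108, minus strand) is shown beside it.
H2AC6: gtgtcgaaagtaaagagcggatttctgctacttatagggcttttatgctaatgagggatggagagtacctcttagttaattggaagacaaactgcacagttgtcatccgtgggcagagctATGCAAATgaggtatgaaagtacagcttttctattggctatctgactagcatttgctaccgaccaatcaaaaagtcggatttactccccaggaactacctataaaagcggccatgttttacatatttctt
H2BC12: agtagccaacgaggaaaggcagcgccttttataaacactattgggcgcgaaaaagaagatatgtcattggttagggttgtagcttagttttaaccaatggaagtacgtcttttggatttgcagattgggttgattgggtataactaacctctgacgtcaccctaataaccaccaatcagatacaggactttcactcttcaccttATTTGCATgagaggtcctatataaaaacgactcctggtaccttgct

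N-glycans are transferred to new proteins by oligosaccharyltransferase, which exists in forms built on STT3A or STT3B. STT3B was 5.30-fold lower with siRNA2, and with 1 measured probe set it has no second reading. STT3A was at 355 under the control siRNA, 361 under siRNA1 and 404 under siRNA2, a log2 ratio of 0.19. Of the 12 measured subunits, 8 were higher and 3 lower, with a median of 0.12. MAGT1 and TUSC3, which serve the STT3B form, had 0.00 and -0.04, and OSTC, of the STT3A form, had 0.43. STT3B was thus the 1 subunit past 2-fold. In the steps that build the glycan on dolichol, 11 of 20 genes were higher and 3 lower, with a median of 0.13. ALG2, a mannosyltransferase, was at 179, 307 and 452, a log2 ratio of 1.34, though a second probe set near the floor gave 0.00. Of 25 genes of glycoprotein folding 19 were higher, with a median of 0.19. Among all measured genes 45% were higher. On second probe sets above the floor 9 of 16 folding genes were higher and 5 lower, with a median of 0.07. For the dolichol steps 1 of 8 was higher and 2 were lower there, with a median of 0.00. GANAB, the catalytic chain of glucosidase II, had 0.92 and 1.11 on its probe sets. CLGN, a chaperone of the calnexin family, was at 230, 51.9 and 76.7, and PDIA3, a disulphide isomerase of glycoproteins, had -0.88.

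Chromatin proteins other than histones held both extremes. Of the 10 high mobility group genes, 7 were lower, against 36.2% of all measured genes, with a median of -0.24. HMGB2, a relative of HMGB3 that peaks in dividing cells, was at 2503 under the control siRNA, 2115 under siRNA1 and 1569 under siRNA2, while HMGB1 was at 4502, 4438 and 4264. Further HMGB1 probe sets gave -0.18, -0.18 and -0.20, and another, at 329 in the control, gave -1.03. HMGA2, an architectural protein of embryonic tissue, had 0.70, but 0.06 on its second probe set. JARID2, which guides the repressive Polycomb complex 2, was at 82.2, 127 and 261, and its second probe set gave 1.04. The catalytic subunit of that complex, EZH2, had -0.85, and EED, which binds its product, had -0.56, whereas SUZ12 had 0.05. The members of 1 complex therefore differed in direction.

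Matrix genes were read next, as collagens, their receptors and targets of YAP. Of 15 measured collagen chains 10 were higher and 3 lower, 3 at 2-fold, with a median of 0.78, the highest of the 36 lists. Among all measured genes 45% were higher and 2.15% at least 2-fold higher. Of the chains at 2-fold, COL3A1 and COL5A2 lay at the floor in the control, so they could not be counted as lower. The counts and the median include them. COL4A5 was at 29.8 under the control siRNA, 34.4 under siRNA1 and 74.5 under siRNA2, and the basement membrane chains COL4A1 and COL4A2 had 0.86 and 0.92. On second probe sets, which 5 chains had above the floor, 2 were higher and 2 lower, with a median of 0.00. CCN1, a matrix protein and target of the coactivator YAP, was at 477, 341 and 1233, and its second probe set gave 1.17. CCN2, of the same family, was at 248, 207 and 500. For both the siRNA1 value was below the control. In the whole YAP and TEAD list 9 of 15 measured genes were higher and 5 lower, with a median of 0.12. ITGA6, a laminin receptor subunit, had 1.16 and 0.48 on its probe sets, and ITGA2, a collagen receptor subunit, had -0.87 and -0.26.

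In the BMP and TGF-beta pathway 5 of 33 measured genes were at least 2-fold higher and 1 was lower, with a median of 0.17, against 2.15% and 1.21% of all measured genes. On second probe sets above the floor 1 of 20 was 2-fold higher, none was 2-fold lower, and the median was 0.00. NOG, the secreted BMP antagonist noggin, was at 28.1 under the control siRNA, 32.5 under siRNA1 and 83.7 under siRNA2. THBS1, which activates latent TGF-beta, was at least 2.76-fold higher from the floor, but its 2 other probe sets gave 0.07 and 0.05. ID4 also lay at the floor in the control and was at least 2.41-fold higher, but its second probe set read 21.9 on all 3 arrays. From the floor THBS1 and ID4 could not have been counted as lower. ID2, a BMP target that blocks helix-loop-helix factors, gave 1.22 and 1.36 on its probe sets. LTBP1, which tethers latent TGF-beta, had 1.33, with 0.37 on the second probe set. LTBP2 had -1.16 and -0.77. The receptors BMPR2 and TGFBR3 had 0.94 and 0.93.

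MMP9, a collagenase of basement membrane, was at 167 under the control siRNA, 23.6 under siRNA1 and 34.8 under siRNA2, on its single probe set. PLAU, the urokinase, was at 3052, 538 and 1457, with -1.44 on its second probe set. PLAUR, its receptor, had -0.65. Of the 15 measured genes of this protease list 4 were higher and 7 lower, with a median of 0.00. IL11, which signals through the receptor chain that interleukin 6 uses, read 102 on the control array, lay at the floor with siRNA1 and read 26.2 with siRNA2, but its second probe set gave -0.42. Its relative LIF had -0.76. Of 16 NF-kappaB targets, subunits and chemokines 14 were lower and none higher, with a median of -0.33, against 36.2% lower and 45% higher among all measured genes. On second probe sets 5 of 7 were lower. CXCL3, a neutrophil chemokine, was at 62.0, 26.2 and 20.6. NFKB1, the precursor of the p50 subunit, was at 78.4, 75.2 and 37.3, 2-fold lower with siRNA2 and level with siRNA1. RELA, its main partner, had -0.60 and -0.26 on its probe sets.

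The 38 measured ribosomal protein genes had a median of 0.00 and none at 2-fold, and the 12 housekeeping genes had -0.01. On second probe sets above the floor 13 of 21 ribosomal protein genes were lower and 4 higher. Their median was -0.05, and 1 of them was 2-fold lower. Interferon-stimulated genes and RNA sensors, which foreign duplex RNA can induce, had 11 of 19 higher and 6 lower, against 45% higher among all measured genes. Their median was 0.17, and none was at 2-fold. On second probe sets above the floor 3 of 10 were higher and 6 lower, with a median of -0.06, and 1 was 2-fold lower. IRF9 had 0.84 and ISG15 had 0.74. The genes of RNA interference had a median of 0.20, and AGO2, the nuclease that cuts siRNA targets, had -0.05. Of 17 measured p53 targets none reached 2-fold, and the median was 0.00. The median of the ATF4 stress targets was 0.24 with siRNA2, beside 0.72 for siRNA1. DDIT4, a stress-induced brake on mTORC1, was at 142, 160 and 317, whereas VLDLR had -1.23. Cholesterol synthesis genes had 15 of 18 lower, against 36.2% of all measured genes, with a median of -0.22 and none at 2-fold, and 8 of 9 were lower on second probe sets. DANCR is reported to bind proteins of RNA and chromatin. LRPPRC, which stabilises the mRNAs of mitochondria, had 0.45, its partner SLIRP 0.10 and WDR5 -0.41.

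Cell identity genes were checked on both arrays. VIM, the filament of mesenchymal cells, read 5322 under the control siRNA and 4861 under siRNA2, and KRT18, an epithelial keratin, read 1315 and 1022. Other markers went the other way. Of 5 measured mesenchymal markers 3 were higher and 2 lower, with a median of 0.20. Of 5 measured urothelial markers 2 were higher and 3 lower, with a median of -0.02. SNAI2 had 0.78, GATA3 had 0.80, and FN1 had 0.70, with 1.05 on its second probe set. The uroplakins UPK1A, UPK1B, UPK2 and UPK3A and the keratins KRT5, KRT13 and KRT20 were not above the floor on any of the 3 arrays. Markers of other cell types were few and dim. Of 6 leukocyte markers 2 were measured, of 9 endothelial and fibroblast markers 4, and of 4 erythroid and hepatic markers 2. Their intensities in the control ran from 10.5 to 30.9, and none differed 2-fold. PTPRC, ALB, CDH5 and DCN were not above the floor on any array.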

How the data were processed

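Total RNA was amplified and labelled with biotin for Affymetrix arrays, per the labels' protocols. The authors deposited 1 intensity per probe set and array, on a linear scale and already scaled between arrays by a method not given in the sources used here. The submitters' processing notes name GCOS 1.4. Probe sets were named through GEO's platform annotation. Of 54675 probe sets 41097 named 1 gene, 1801 several and 11777 none, and symbols of 41043 were updated by gene identifier to RefSeq (GRCh38.p14). Gene results exclude the 62 control probe sets. Values were raised to the 50th percentile, the probe set with the highest mean over 3 arrays stood for its gene, and log2(siRNA2/control) was taken. A 2-fold change (log2 of 1) was counted. With 1 array a group there was no test. The number of arrays limits the precision.

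Named genes were the markers, the 15 highest and 15 lowest ratios, the largest bounds and 10 genes each way by their 2 brightest probe sets. Further ones were list members at 2-fold, or the largest 3. Genes outside this rule were named after their values were seen, mostly as partners of these. The members and the 36 lists were chosen with earlier results of these data known. The calculation was tested on simulated data. Alternatives were other scalings, floors, probe set rules and thresholds. Python 3.11.15, numpy 2.4.6 and pandas 2.3.3 were used.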

Additional observations from a re-analysis of the deposited data

Results flagged for a closer look

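Probe sets that name several genes or none were not used for gene results. Of 1094 measured probe sets naming several genes, 20 (1.83%) were at least 2-fold higher with siRNA2 and 13 (1.19%) lower. Of 3670 naming no gene, 51 (1.39%) were higher and 37 (1.01%) lower. Over all measured genes the shares were 2.15% and 1.21%, so neither class held more such differences than the genes. SYNJ2BP, an outer mitochondrial membrane protein named together with its readthrough transcript, was higher on 3 probe sets, with log2 ratios of 1.18, 1.49 and 1.63. A probe set naming SERF2, HYPK, their readthrough and a miRNA was at 382 under the control siRNA, 791 under siRNA1 and 933 under siRNA2. A probe set shared by 10 H3 genes was at 13.5, 22.9 and 33.8. MCAM, a cell adhesion molecule named together with a miRNA, was at 478, 554 and 141. A probe set naming H3-3A, H3-3B and a miRNA was at 366, 236 and 132. These genes were named after their values were seen.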

How the results depend on the processing

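Across the alternatives the log2 ratio of DANCR ran from -2.44 to -2.41, STT3B from -2.46 to -2.40, CDK6 from 1.82 to 1.87, CCND1 from -3.49 to -2.75 and H2BC5 from 1.55 to 2.40. DANCR and STT3B have no second measured probe set. By the median over probe sets CCND1 gave -3.10 and H2BC5 1.97, and by the second-brightest probe set -2.75 and 1.55. The second-brightest probe set also gave 110 genes higher and 70 lower, 1 histone at 2-fold, and 20 replication and 19 mitosis genes lower. Fewer genes have a second probe set, and of those 2-fold on the brightest only the smaller part was 2-fold on it. A 1.5-fold threshold gave 1088 higher and 533 lower genes, and a 3-fold threshold 34 and 34. Histones at 2-fold, 7 as reported, numbered 8 with the floor at the 30th percentile or none, 4 with the floor at the 70th percentile and 2 without _s_at and _x_at probe sets. PCDH9 (-0.14) changed sign on its second-brightest probe set, as did TMED10 (0.32), which gave the same value without _s_at and _x_at probe sets. Of the ratios of named genes under alternatives, 1053 moved by less than 0.16 and 166 by more. That limit is the median difference between probe sets of a gene. A further 3, all of PCDH9 or TMED10, were past 2-fold in the main setting and changed sign. Sign changes of smaller ratios were not counted apart. NUS1, for example, had 0.65, and -0.06 on its second-brightest probe set. Of list medians, 327 moved by less and 30 by more, including those with ratios of exactly 0 left out, an alternative added after the data were seen. No paired analysis was possible because each group had 1 array. No replicate could be left out for the same reason.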
